A study of Homo sapiens with 6 samples.

Results

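The genes described here were 10 members of the fibroblast growth factor (FGF) pathway, namely 4 receptors for fibroblast growth factors (FGFR1, FGFR2, FGFR3 and FGFR4), the ligand gene FGF2 and 5 genes for inhibitors that are known as feedback regulators of such receptors (SPRY1, SPRY2, SPRY4, SPRED1 and SPRED2). They were followed through every probe set to which the platform annotation assigned only the gene's own symbol, which gave 36 of 54613 tested probe sets and 10 of 19775 genes. The measurements came from Affymetrix Human Genome U133 Plus 2.0 arrays of MDA231-LM2 cells, an established human breast cancer line that metastasizes to the lungs and descends from MDA-MB-231. The monolayer group held 3 arrays of cells attached to dishes in DMEM GlutaMAX with 10% fetal bovine serum, antibiotics and amphotericin B, taken 48 h after a change of medium. The oncosphere group held 3 arrays of cells floating in ultra-low adhesive plates for 4 days in HuMEC medium with bFGF (10 ng/ml), EGF (20 ng/ml), insulin (5 μg/ml) and B27 (2%), with no serum listed for that medium. The bFGF of that medium is the protein that the FGF2 gene encodes, so the oncospheres, and not the monolayer, received this ligand as an additive. Attachment, serum, growth factors and time in culture all differed between the groups, and their parts in any difference cannot be told apart. All arrays were of 1 cell line, so that replicates were cultures and not patients or clones.

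Fibroblast growth factors bind receptor tyrosine kinases at the cell surface together with heparan sulfate, and the activated receptor recruits adaptors that switch on RAS and the kinases RAF, MEK and ERK. ERK signaling in turn raises the transcription of several of its own inhibitors, among them the Sprouty and SPRED proteins, which act at the level of the adaptors and of RAS and RAF. This loop limits the length and strength of the signal, and the RNA level of Sprouty genes and of the ERK phosphatase DUSP6 is widely used as a readout of FGF and ERK activity in epithelial and mesenchymal cells.

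In oncospheres, FGFR1 and the 5 Sprouty and SPRED genes among the 10 were higher than in monolayer. FGFR2, FGFR4 and FGF2 were not called in either direction. SPRY1 was 2.48-fold higher, SPRY4 2.47-fold, SPRED2 2.27-fold, FGFR1 2.17-fold, SPRED1 1.74-fold and SPRY2 1.26-fold by the brightest probe set of each gene. FGFR3 was 1.32-fold higher by its brighter probe set, at a low intensity. Calls were made where limma's p, adjusted by Benjamini-Hochberg over every probe set tested, was below 0.05. By this rule 7 of the 10 genes were called higher and 0 lower, where 17.3% of all 19775 genes were called higher and 17.5% lower. Of the 36 probe sets, 18 were called higher and 0 lower, against 14.5% and 14.2% of all probe sets (28.7% in either direction). The arrays of the groups did not overlap for 7 of the 10 genes, against 46.9% of all genes. The median log2 change of the 10 genes was 0.60, and that of all genes -0.020.

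**Figure D1:**
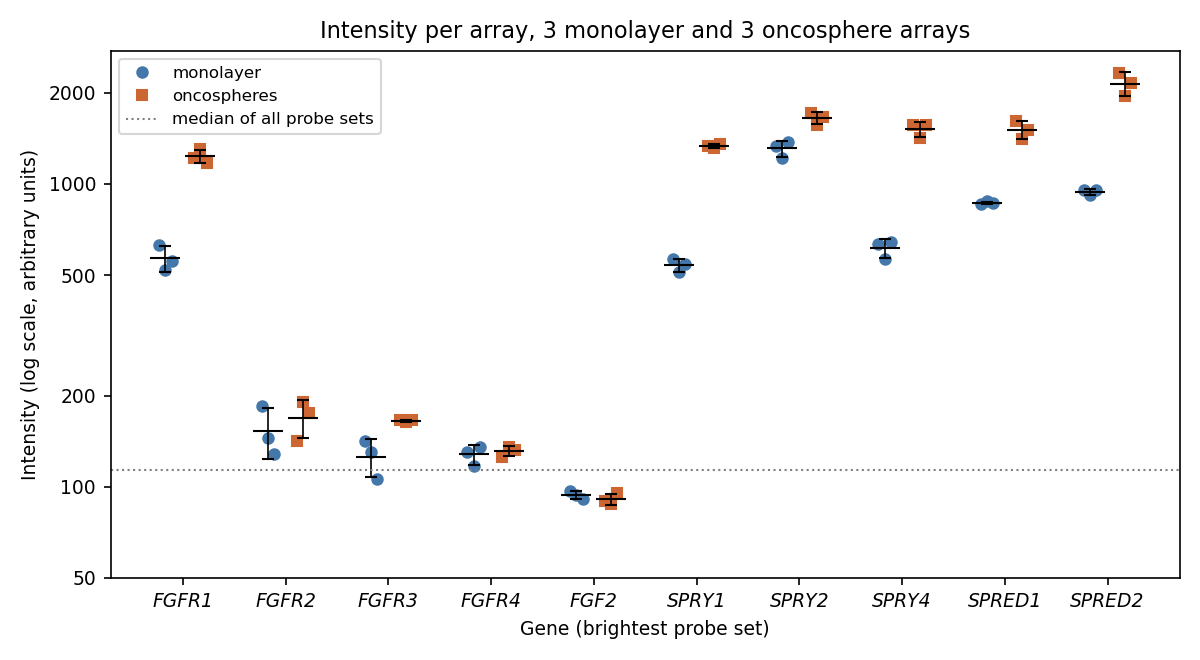
Intensity of the brightest probe set of each of the 10 genes on every array (log axis, arbitrary units), with circles for the 3 monolayer and squares for the 3 oncosphere cultures, horizontal marks for the means and bars for the SD. Every oncosphere culture exceeded every monolayer culture for FGFR1, FGFR3, SPRY1, SPRY2, SPRY4, SPRED1 and SPRED2, while FGFR2, FGFR4 and FGF2 overlapped, and the dotted line is the median of all probe sets (113.4). Heights are not comparable between genes.

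Arrays of the same group correlated with Pearson's r of 0.993 to 0.996 across probe sets, and arrays of different groups with 0.966 to 0.973. The first principal component held 79.1% of the variance, and the second 6.89%. All 4 markers of the line (VIM, CD44, KRT8 and KRT18) were above the array median on every array, and KRT8 (log2 change -0.32) and KRT18 (-0.64) were called lower in oncospheres. Of 5 luminal breast markers, ESR1, GATA3 and EPCAM were above the median on every array and PGR and CDH1 were not, and EPCAM was called lower (-0.34). ESR1 lay only just above the median, at 118 to 144 where array medians were 112.6 to 114.1. GATA3 lay between 418 and 479 and EPCAM between 392 and 574. Among markers of other cell types, LUM (fibroblasts) lay between 154 and 241 in oncospheres against 68.4 to 73.8 in monolayer, and PECAM1 (endothelium) between 429 and 652 against 169 to 205. PDGFRA, CDH5 and PTPRC lay at 98.5 or less on every array. The other markers on these lists were not all as low. PDGFRB (fibroblasts) lay between 123 and 151 and DCN (fibroblasts) between 105 and 123. CD3E (leukocytes) lay between 112 and 147 and VWF (endothelium) between 86.2 and 110. The summed intensity of the 4 fibroblast markers ran from 420 to 429 in monolayer and from 488 to 585 in oncospheres, that of the 3 endothelial markers from 350 to 359 and from 599 to 830, and that of the 2 measured leukocyte markers, of 4, from 190.1 to 200.2 and from 182 to 221. In such bulk samples, a smaller share of cells with a transcript and less transcript per cell cannot be told apart.

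The ligand gene FGF2 lay below the median of all probe sets in both culture forms, and 1 of its 2 probe sets was near the lowest values of the arrays. No array had any value below 48.02, and each array's 5th percentile was between 63.8 and 64.8. The brighter FGF2 probe set (204421_s_at) read 97.0, 93.6 and 91.0 in monolayer 1 to 3 and 89.6, 87.7 and 95.4 in oncospheres 1 to 3. The other (204422_s_at) read 60.1, 70.3 and 64.3 in monolayer and 65.3, 67.8 and 66.8 in oncospheres. The groups overlapped for both, and neither was called, with log2 changes of -0.047 (SE 0.060, adjusted p = 0.641) and 0.040 (SE 0.070, adjusted p = 0.740) by limma. At such intensities a low transcript level was not separated from background.

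FGFR1, the receptor with the widest expression among mesenchymal cells, was called higher by 7 of its 7 probe sets, and in none of them did the groups overlap (over all probe sets, groups did not overlap in 41.5%). Its brightest probe set (226705_at) read 630.0, 519.6 and 557 in monolayer 1 to 3. In oncospheres 1 to 3 it read 1221, 1300.1 and 1174. All 3 oncosphere cultures were thus close to one another and far above the monolayer cultures. The group means were 569 ± 56.1 and 1232 ± 63.6 (SD, n = 3 each), with a log2 change of 1.12 (SE 0.08, adjusted p = 4.04e-05, limma). The second probe set (211535_s_at) gave 522, 517 and 572 in monolayer against 1078, 1158 and 1093 in oncospheres. Its log2 change was 1.05 (SE 0.06), which differed from that of the brightest by 0.070, less than the spread between monolayer arrays.

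The remaining FGFR1 probe sets were dimmer and most changed less. For 210973_s_at, 207937_x_at, 215404_x_at and 222164_at the log2 changes were 0.72, 0.61, 0.50 and 0.33, with adjusted p of 0.00274 or less (limma). The per-array difference between the brightest probe set and each of these did not overlap between the groups. The exception was 207822_at, dim in monolayer with 92.6, 107 and 93.2, but at 232, 186 and 185 in oncospheres. It had a log2 change of 1.04 (SE 0.10), and when the 5th percentile of each array was subtracted as background, its log2 change became 2.05 and the fold change 4.15 in place of 2.05. After the same subtraction the other FGFR1 probe sets lay between 0.75 and 1.22 on the log2 scale. The size of the FGFR1 change therefore depended on the probe set and on the treatment of background, and its direction did not under the alternatives tried. Which transcript forms the probe sets read was not examined, and probe sets named _x_at or _s_at can match more than 1 transcript.

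FGFR2, known for its epithelial and mesenchymal splice forms, was covered by 11 probe sets, none of them called. The brightest (208229_at) read 185, 145 and 128 in monolayer and 142, 190.2 and 175 in oncospheres, so the groups overlapped, and its log2 change was 0.15 (SE 0.15, adjusted p = 0.525, limma). Over the 11 probe sets the log2 changes ran from -0.093 to 0.15, with adjusted p between 0.367 and 0.924. Intensities ran from 67.6 to 190.2, and only 208229_at and 208234_x_at had group means above the median of 113.4. After subtraction of each array's 5th percentile, 240913_at lay at the floor of 16 on 6 arrays, and 203639_s_at and 211399_at on 5 each. For the dim probe sets a low transcript level was not separated from background. One probe set, 211400_at, had groups without overlap (89.6 to 100.4 in monolayer, 84.6 to 89.6 in oncospheres), by a margin of less than 1 unit of intensity.

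FGFR3 and FGFR4 lay in the same low range. FGFR3, best known from urothelial cancer and from cartilage, had a brighter probe set (204379_s_at) at 141, 129.9 and 106 in monolayer and 166, 164 and 165 in oncospheres. The 3 oncosphere values were nearly equal and lay above the more widely spread monolayer values. The log2 change was 0.40 (SE 0.10, adjusted p = 0.0179, limma). The call did not hold without oncosphere 1 (adjusted p = 0.0536) or oncosphere 3 (0.0509), nor after background subtraction (0.112), with a range of 0.00989 to 0.112 over the alternatives for this probe set. The dimmer FGFR3 probe set (204380_s_at) went the other way without a call (79.1, 75.8 and 75.4 against 70.4, 69.4 and 73.6; log2 change -0.11, SE 0.06, adjusted p = 0.204). FGFR4, a receptor of hepatocytes among other epithelia, had 4 probe sets, none called, with log2 changes from -0.13 to 0.037. Its brightest (1554962_a_at) read 130.4, 117 and 136 in monolayer and 126, 135 and 132 in oncospheres.

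**Figure D2:**
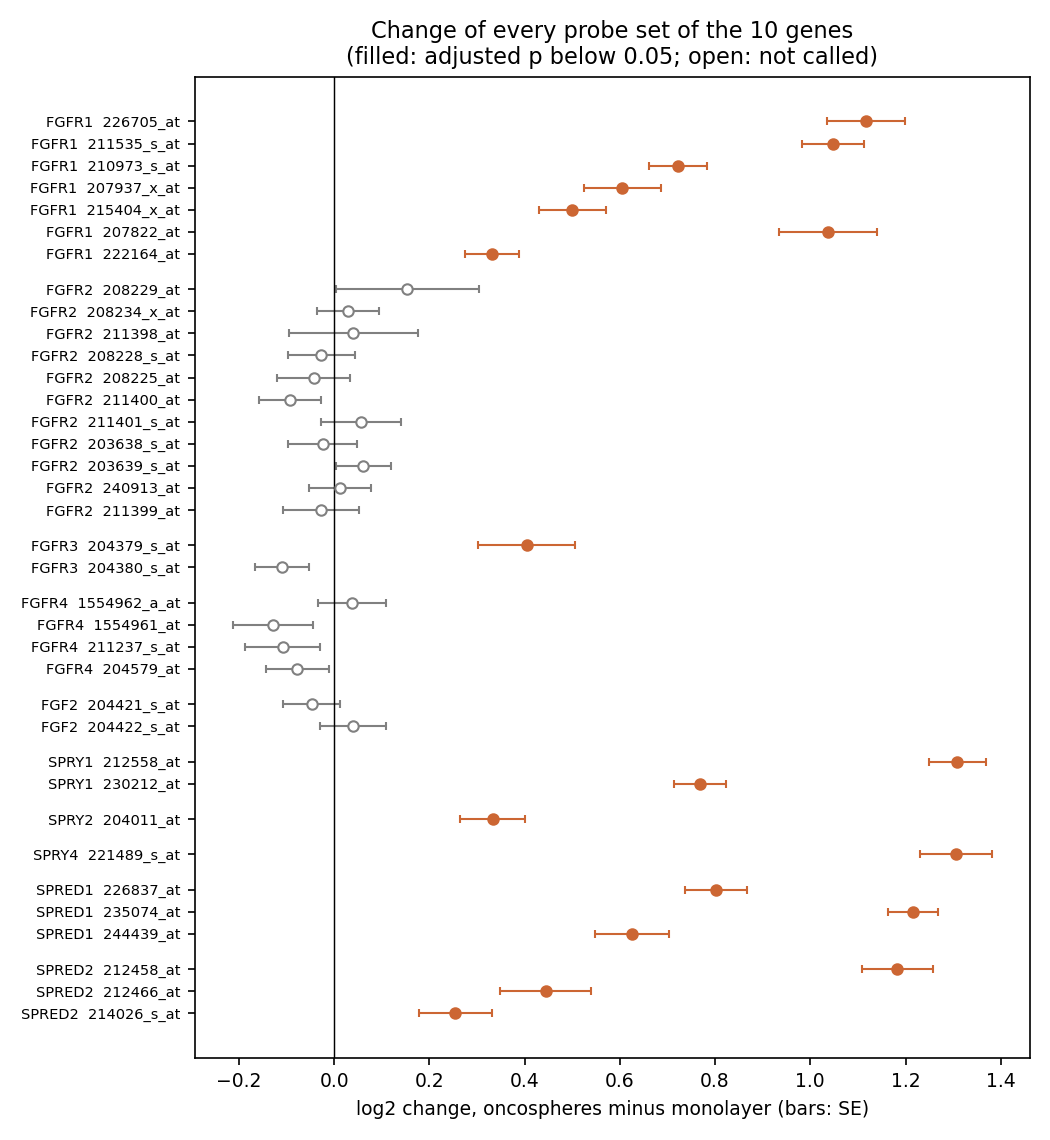
log2 change from monolayer to oncospheres for each of the 36 probe sets, grouped by gene and ordered by intensity within a gene, with bars for the SE of limma. Filled points were called (adjusted p below 0.05) and open points were not: all 7 FGFR1 and all 10 Sprouty and SPRED probe sets were filled and above 0, while 18 of the 19 probe sets of FGFR2, FGFR3, FGFR4 and FGF2 were open.

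To show the DNA next to the starts of these genes, RefSeq promoter windows of GRCh38.p14 (250 bases before to 50 after a start site) were searched on both strands for 5 motifs that bind factors downstream of ERK or linked to growth. They were the ETS core (CCGGAAG), the AP-1 site (TGANTCA), the E-box (CACGTG), the TEAD site (GGAATG) and the cAMP response element (TGACGTCA). The table held 18 windows for 9 of the 10 genes, of which 9 belonged to Sprouty and SPRED genes. Among these 9, an ETS core, an AP-1 match and a TEAD match stood in 1 window each, an E-box and a cAMP response element in 0, and 6 windows held none of the motifs. Of all 35116 windows of this length, 10.3% held the ETS core, 7.71% the AP-1 site, 14% the TEAD site, 7.26% the E-box and 1.85% the cAMP response element. Shown are the windows of SPRY1 and SPRED2 with a match, from their second listed start sites. The part of the SPRY4 window before its start is shown too, since SPRY4 changed as much as SPRY1. That part holds no match, and the TEAD match of SPRY4 lies after the start. Capitals mark a match, and each sequence runs 5′ to 3′ on the gene's strand.
SPRY1, chr4:123398136-123398385, plus strand, the 250 bases before the start: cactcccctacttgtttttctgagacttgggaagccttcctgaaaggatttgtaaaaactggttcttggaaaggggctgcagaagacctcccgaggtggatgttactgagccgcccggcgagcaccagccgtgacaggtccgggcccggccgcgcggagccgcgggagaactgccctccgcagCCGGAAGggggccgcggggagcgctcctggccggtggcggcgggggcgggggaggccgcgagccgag
SPRY4, chr5:142324248-142324497, minus strand, the 250 bases before the start: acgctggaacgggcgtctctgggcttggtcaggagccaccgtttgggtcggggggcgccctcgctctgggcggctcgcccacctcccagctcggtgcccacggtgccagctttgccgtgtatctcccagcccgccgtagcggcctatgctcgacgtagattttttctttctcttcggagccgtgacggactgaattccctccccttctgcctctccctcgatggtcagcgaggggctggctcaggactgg
SPRED2, chr2:65366759-65367028, minus strand, 250 bases before the start and 20 after it: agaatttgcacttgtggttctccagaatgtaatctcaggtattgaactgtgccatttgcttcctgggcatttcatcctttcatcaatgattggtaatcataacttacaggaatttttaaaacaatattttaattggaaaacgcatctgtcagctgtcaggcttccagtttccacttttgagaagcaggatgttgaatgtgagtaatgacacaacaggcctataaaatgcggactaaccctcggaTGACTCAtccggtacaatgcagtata

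The ETS core of SPRY1 began 67 bases before the start, and the AP-1 match of SPRED2 began 6 bases before it, with a second match 35 bases into the transcript that is not shown. The TEAD match of SPRY4 began at base 2 of the transcript and is not shown either. The SPRY1 and SPRY4 windows were rich in G and C (68% and 65.6%), and that of SPRED2 was not (39.3%). Which start sites the cells used was not measured, and a match describes letters only.

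The Sprouty genes encode membrane-associated proteins that are phosphorylated after receptor activation and then block signaling between receptor and RAS, and 3 of 3 were higher in oncospheres. SPRY1 (212558_at) read 563, 510.2 and 543 in monolayer 1 to 3 and 1331, 1311 and 1359 in oncospheres 1 to 3. The lowest oncosphere value was more than 2 times the highest monolayer value, and within oncospheres the SD was only 23.9. The log2 change was 1.31 (SE 0.06, adjusted p = 4.85e-06, limma). The dimmer SPRY1 probe set (230212_at) read 189, 184 and 189 against 320.2, 308 and 328, with a log2 change of 0.77 (SE 0.05).

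SPRY4, a target of FGF signaling in many embryonic tissues, was measured by a single probe set, 221489_s_at. It read 633, 563 and 645 in monolayer and 1569, 1417 and 1562 in oncospheres. The groups were far apart, with means of 613 ± 44.4 and 1516 ± 85.7 (SD, n = 3 each) and a log2 change of 1.31 (SE 0.07, adjusted p = 1.29e-05, limma). SPRY2, which also binds the ubiquitin ligase CBL, moved least. Its only probe set (204011_at) read 1332, 1221 and 1377 in monolayer and 1718, 1564 and 1667 in oncospheres. The groups did not overlap, and the log2 change was 0.33 (SE 0.07, adjusted p = 0.00714, limma).

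SPRED1 and SPRED2 share with Sprouty a cysteine-rich end and carry in addition an EVH1 domain. SPRED1 recruits neurofibromin, which switches RAS off. The brightest SPRED1 probe set (226837_at) read 859, 876 and 862 in monolayer and 1615, 1411 and 1506 in oncospheres, a log2 change of 0.80 (SE 0.06, adjusted p = 6.27e-05, limma). A slightly dimmer one (235074_at) rose from 598, 617 and 619.9 to 1435, 1400.0 and 1425, with a log2 change of 1.22 (SE 0.05, adjusted p = 3.81e-06). The per-array difference between these probe sets did not overlap between the groups. The third (244439_at) had a log2 change of 0.63 (SE 0.08).

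For SPRED2 the brightest probe set (212458_at) read 957, 916 and 953 in monolayer and 2326, 1945 and 2159.7 in oncospheres. All oncosphere values were at least 2 times the highest monolayer value, and the log2 change was 1.18 (SE 0.07, adjusted p = 1.91e-05, limma). The dimmer SPRED2 probe sets changed less, by 0.44 (212466_at, adjusted p = 0.00873) and 0.25 (214026_s_at, adjusted p = 0.0387). The latter was not called when any of monolayer 1, 2 or 3 or of oncosphere 1 or 3 was left out, with adjusted p of 0.0516 to 0.123 in those fits and 0.0199 to 0.123 over the alternatives. In all, 10 of 10 probe sets of the 5 Sprouty and SPRED genes were called higher, against 14.5% of all probe sets. In 10 of 10 the groups did not overlap (41.5% of all probe sets). The median log2 change was 0.78, against -0.016 over all probe sets. The relatives SPRY3 and SPRED3 were counted on another list and were not called. With the probe sets of a gene averaged, the change of SPRED2 was 0.63. In 9 of the 10, oncosphere culture 2 was the lowest of the oncospheres, and it was the lowest for all 5 genes by the brightest probe set; without it the log2 changes of these genes stayed between 0.37 and 1.35.

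By the brightest probe set of each gene, the changes of the 5 Sprouty and SPRED genes ranged from 0.33 to 1.31 on the log2 scale. All 10 pairs of these genes were compared through the difference of their log2 values on each array, with an exact two-sided permutation test, in which 3 against 3 arrays cannot give a p below 0.10. In 7 pairs the groups did not overlap and the exact p was this smallest value (0.143 after Benjamini-Hochberg adjustment over the 10 pairs), so that no pair could pass a threshold of 0.05. The change of SPRY2 was the smaller in each of its pairs, by 0.98 against SPRY1, 0.97 against SPRY4, 0.85 against SPRED2 and 0.47 against SPRED1 on the log2 scale. For SPRED2 this held for the brightest probe set, since its dimmer ones changed by 0.44 and 0.25, against 0.33 for SPRY2. By its brightest probe set, the change of SPRED1 was smaller than those of SPRY1, SPRY4 and SPRED2 by 0.51, 0.50 and 0.38. This order rested on the probe set, since 235074_at of SPRED1 gave 1.22, against 1.31 for SPRY1 and for SPRY4 and 1.18 for SPRED2. SPRY1 and SPRY4 differed by 0.0025 (exact p = 1), with an SD between arrays of 0.055 in monolayer and 0.064 in oncospheres.

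The change was also read against intensity, since probe sets near the lowest values of an array understate changes. On the deposited scale, SPRED2 spanned log2 changes of 0.25 to 1.18 between its dimmest and its brightest probe set, and SPRY1 0.77 to 1.31. After subtraction of each array's 5th percentile, the dimmest SPRED2 probe set changed by 0.79 and the brightest by 1.24. The SPRY1 probe sets then changed by 1.05 and 1.42. SPRY2, the brightest of the 36 probe sets by mean log2 intensity, changed by 0.35 after subtraction.

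**Figure D3:**
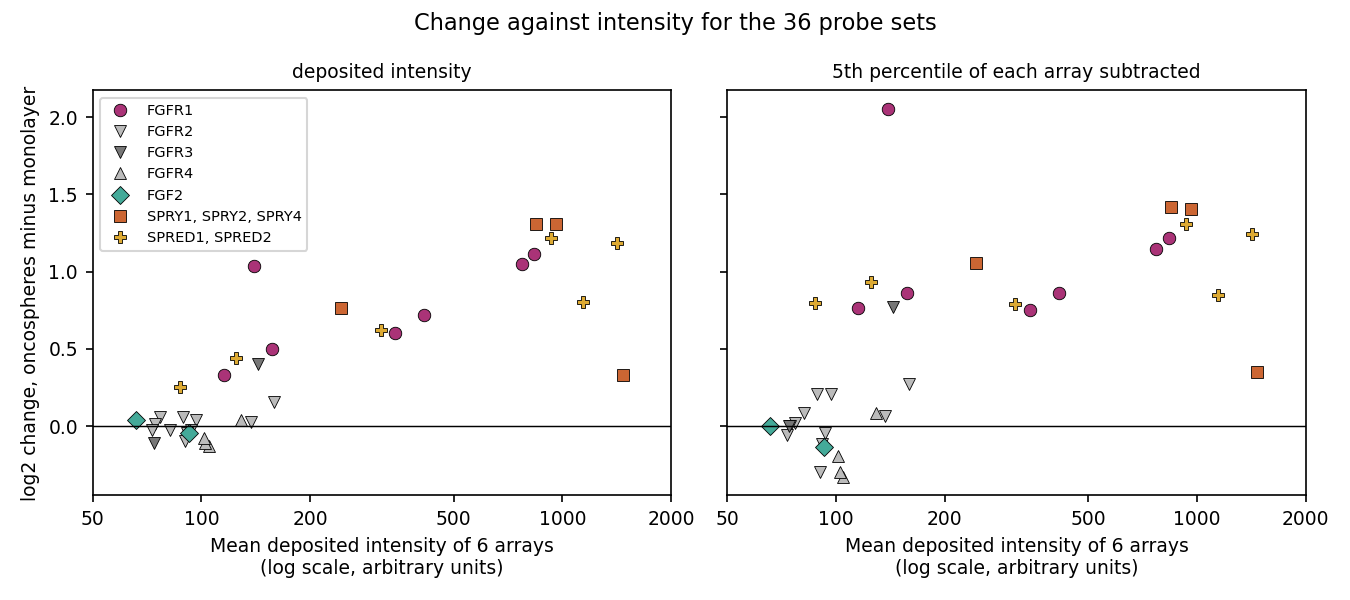
log2 change (y axis) against the mean deposited intensity of the 6 arrays (x axis, log scale) for the 36 probe sets, as deposited (left) and after subtracting the 5th percentile of each array (right), with 1 symbol for each receptor, FGF2, the Sprouty genes and the SPRED genes. The dim FGFR1 and SPRED2 probe sets move up on the right, to 2.05 for 207822_at and 0.79 for 214026_s_at, whereas SPRY2 stays at 0.35.

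The genes around the receptors were counted on 6 lists of textbook members, leaving out the 10 genes. Of the other FGF ligands, 3 of 21 were called higher and 1 lower, where 34.9% of all genes were called in either direction. FGF1, a ligand of all FGF receptors, read 216, 247 and 205 in monolayer and 528, 424 and 398 in oncospheres (log2 change 1.01, SE 0.12, adjusted p = 3.67e-04, limma). FGF5, known as a brake on hair growth, went down from 291, 345 and 305 to 148, 161 and 169 (log2 change -0.98, SE 0.08, adjusted p = 7.59e-05). FGF18 and FGF14 were called with log2 changes of 0.29 and 0.26 at low intensity, and these calls were lost without single arrays. That of FGF18 was lost without monolayer 2 or 3 or oncosphere 1 or 3 (adjusted p of 0.0714 to 0.0801, limma), and that of FGF14 without oncosphere 1 (0.0531) and with its probe sets averaged (0.561). With probe sets averaged, FGF1 changed by 0.57. Among co-receptors and binding proteins, 4 of 12 were higher and 0 lower. They were FLRT2, a membrane protein that binds FGF receptors (0.87), the carrier FGFBP3 (0.60), the kinase-less receptor FGFRL1 (0.29) and FLRT3 (0.28). Averaging of probe sets gave 0.13 for FGFRL1, no longer called (adjusted p = 0.0563, limma), and 0.15 for FLRT3.

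Adaptors and effectors gave 6 higher and 2 lower of 15 measured genes, and the RAS-ERK cascade 7 higher and 2 lower of 17, where 17.3% of all genes were called higher and 17.5% lower. These counts rest on the brightest probe set. STAT3, ARAF and RPS6KA3, counted as higher, each had 1 other probe set called lower. Of genes not called, GRB2, SHC1, CRKL and NCK1 each had 1 probe set called lower, and GAB1 had 1 called higher. SOS2, an exchange factor that loads RAS with GTP, read 785, 769.9 and 777 in monolayer and 1763, 1487 and 1558 in oncospheres, a log2 change of 1.04 (SE 0.07), but only 3 of its 6 probe sets were called, and their average changed by 0.37. Its relative SOS1 changed by 0.57, the PI3-kinase subunit PIK3R1 by 0.64, PLCG1 by 0.39 and NCK2 by 0.29, while the phosphatase PTPN11, which carries signals from receptors to RAS, had a log2 change of -0.35. With probe sets averaged, SOS1 changed by 0.19, PIK3R1 by 0.34 and PLCG1 by 0.23. The call of NCK2 was lost without monolayer 1, oncosphere 1 or oncosphere 3 (adjusted p of 0.0601 to 0.0636, limma), and that of PIK3R1 after background subtraction (0.0544). In the cascade, MKNK2, a kinase that ERK activates (1.10), RRAS (0.96), RPS6KA2 (0.61) and MRAS (0.37) were higher, and RRAS2 (-0.82) and HRAS (-0.44) were lower. RPS6KA2, with 1 of 3 probe sets called, lost its call after background subtraction (adjusted p = 0.0899, limma) and with probe sets averaged (log2 change 0.15, adjusted p = 0.122), and MRAS then changed by 0.22. The kinases MAP2K1 (-0.053) and MAP2K2 (0.10) passed the test in neither direction. Over the 6 lists, 14 of 123 genes had no probe set of their own single symbol and were not analysed.

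Other inhibitors of receptor signaling went both ways, with 8 higher and 6 lower of 22 (17.3% and 17.5% of all genes). GRB10, an adaptor that restrains the insulin receptor, was 3.20-fold higher and read 683, 946 and 991 in monolayer against 2790.0, 2638 and 2859.7 in oncospheres. IL17RD, or SEF, an inhibitor named for its expression together with FGF genes, was 2.79-fold higher, from 431, 586 and 458 to 1335, 1368 and 1381, by the brighter of its 2 probe sets, and the other was not called. The ERK phosphatase DUSP6 was 2.56-fold higher by its brightest probe set and called higher by 3 of 3. It read 3344, 3119 and 2745 in monolayer and 8134, 7508 and 7829.6 in oncospheres. The ubiquitin ligase CBLB (1.14) and the EGF receptor inhibitor ERRFI1 (0.85) were higher and RASSF1 (-0.78) was lower. With probe sets averaged, the log2 changes were 1.04 for GRB10, 0.82 for IL17RD and 0.53 for CBLB, all still called. The remaining Sprouty and SPRED relatives SPRY3 and SPRED3 had log2 changes of 0.0047 and -0.039 and no call.

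Of genes that ERK signaling is known to raise, 12 of 20 were higher, 5 lower and 3 not called, again without the 10 genes (17.3% of all genes were higher and 17.5% lower). ETV1, an ETS factor, was called higher by 5 of 5 probe sets (log2 change 1.37, SE 0.08, by the brightest). It read 2111, 1947 and 2353 in monolayer and 5708, 5337 and 5477 in oncospheres. Also on this list, ETV4 changed by 0.44, with 1 of 2 probe sets called higher, and ETV5 by 0.19, with 0 of 5 called. EGR1, an immediate early factor, changed by 0.88. The AP-1 subunit FOSL1 (-1.18), MYC (-1.02) and the EGF receptor ligand HBEGF (-0.90), all on the same list, were lower. HBEGF changed by -0.43 with its probe sets averaged. FOSL1 read 1822, 1821 and 2103 in monolayer and 764, 947 and 826 in oncospheres. The list therefore held large changes of opposite sign, with a median log2 change of 0.44 against -0.020 for all genes.

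**Figure D4:**
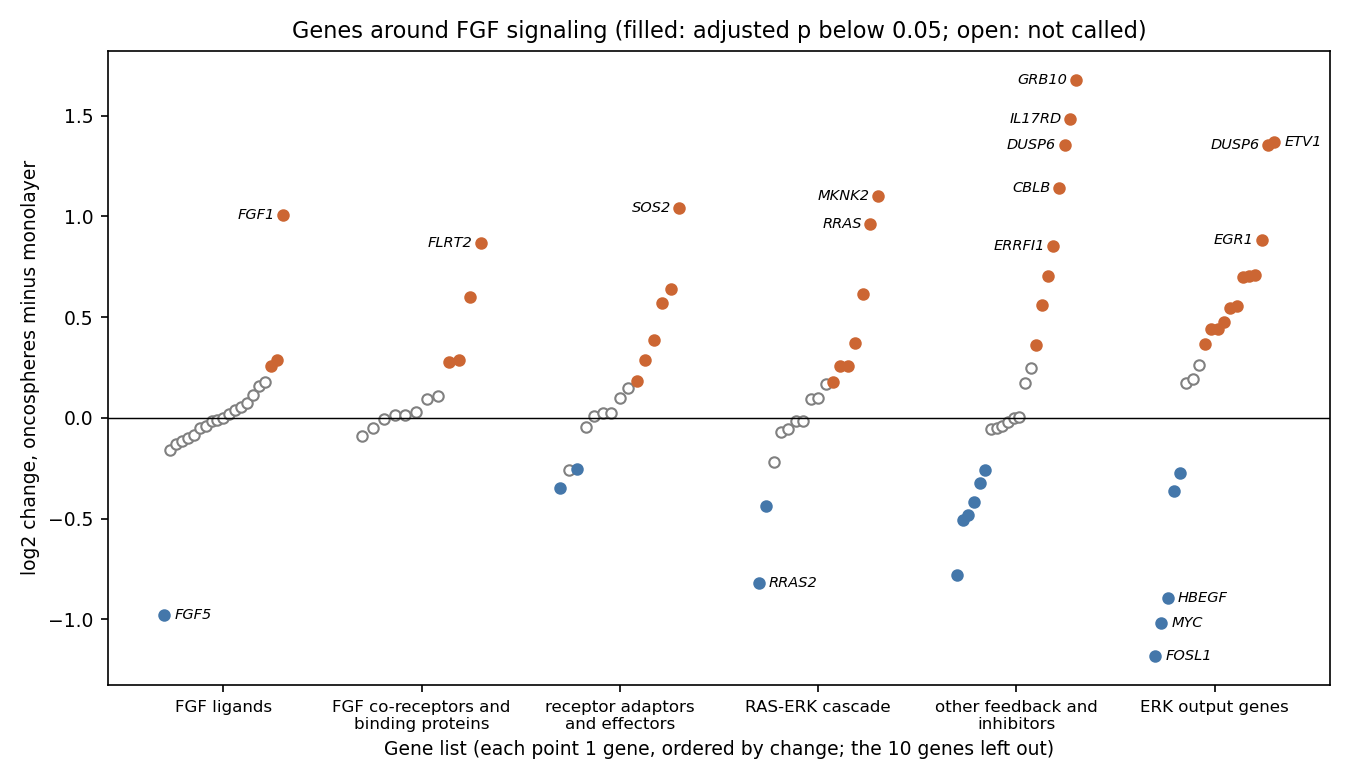
log2 change from monolayer to oncospheres of each gene on the 6 lists around FGF signaling, without the 10 genes; each point is 1 gene by its brightest probe set, ordered by change within a list, and genes beyond 0.8 in size are named. Filled points were called, and DUSP6 stands on the last 2 lists. The inhibitors GRB10, IL17RD and DUSP6 and the ETS factor ETV1 lay above 1.3, while FOSL1 and MYC lay below -1.

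Among the genes whose pattern over the 6 arrays was most like that of SPRY1, which had the largest called increase of the 10, were MED23 (Pearson's r = 1.00 over 6 arrays), SELENOS, KLHL4, SORCS2 and EGR1, all with r of 1.00 after rounding. This is a description, because the 6 arrays formed 2 separate groups and 491 of 19774 genes had r above 0.99 with SPRY1. Within the 10 genes, r with SPRY1 was 0.997 for SPRY4, 0.993 for SPRED2, 0.992 for FGFR1, 0.988 for SPRED1 and 0.947 for SPRY2. It was 0.855 for FGFR3, 0.381 for FGFR2, 0.300 for FGFR4 and -0.430 for FGF2. None of the 10 genes was called lower, so no such list was made for a decrease.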

How the data were processed

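Linear intensities, 1 per probe set and array, were deposited. They had been normalized by the authors with robust multi-array averaging, according to the study's methods, with the affy package named in the submitters' processing notes, its version not given in the sources used here. Whether the values were rescaled afterwards is not stated. RNA input was 100 ng per array. From these intensities log2 was taken, 62 control probe sets were left out, and a linear model with empirical Bayes moderation (limma 3.58.1, R 4.3.3) compared the groups over 54613 probe sets, with no filter on low values, so all 36 probe sets of the 10 genes were tested. The p-values of limma are two-sided and set the group difference against the spread between cultures of 1 line, moderated over all probe sets. A gene was represented by its brightest probe set. Symbols came from the platform annotation, which gave 41091 probe sets 1 symbol, 1801 several and 11721 none, and were updated through gene identifiers of GRCh38.p14. The number of arrays limits the precision. The procedure was tested on simulated arrays.

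The members, the 6 lists, the motifs and the tests were chosen with earlier results of these data known. Named were all 10 genes with every probe set and, of each list, up to 6 called genes with the largest change. To these the largest called gene in the less frequent direction was added. Other genes named from the lists were chosen after their values were seen. They were MAP2K1, MAP2K2, SPRY3, SPRED3, STAT3, ARAF, RPS6KA3, GRB2, SHC1, CRKL, NCK1, GAB1, ETV4 and ETV5. Other settings tried were the exclusion of dim probe sets, of _x_at and _s_at probe sets or of each array in turn, subtraction of each array's 5th percentile (values under 16 set to 16), centring on the median, cyclic loess or a second quantile normalization, array weights, a trended and robust prior, blocking on the replicate number, averaging the probe sets of each gene, a stricter adjusted p (below 0.01), adjustment over the brightest probe sets alone and the exact permutation test.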

Additional observations from a re-analysis of the deposited data

How the results depend on the processing

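No called change reversed its direction under any alternative. For the genes SPRY1, SPRY2, SPRY4, SPRED1, SPRED2 and FGFR1 limma's call held under every alternative run. Without _x_at and _s_at probe sets, 11 of 20 remaining probe sets were called higher, and SPRY4, FGF2 and FGFR3 had none left. FGFR3 also lost its call with the mean of its probe sets (log2 change 0.15, adjusted p = 0.134, limma) and at an adjusted p below 0.01. Counts on the lists that moved by over 1.5 times were those of adaptors called lower (1 without dim probe sets and 4 with the mean of all probe sets, in place of 2), of RAS-ERK genes called higher (4 with the mean of all probe sets, 4 without _x_at and _s_at probe sets and 3 at an adjusted p below 0.01, in place of 7) and of FGF ligands called higher (1 at an adjusted p below 0.01, in place of 3). The samples shared only a replicate number, with correlations of deviations between same-numbered arrays of 0.068, 0.082 and 0.089. With the replicate number as a block, 18 of the 36 probe sets were called higher and 0 lower, and over all probe sets 15450 were called in place of 15681. Without dim probe sets, 20 of the 36 probe sets and 9 genes were left. The exact permutation test gave its smallest two-sided p of 0.1 for each of the 7 called genes. Scaling moved the median change by at most 0.011 on the log2 scale.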
